A study of Macaca mulatta with 30 samples.

Results

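Bone morphogenetic proteins (BMPs) are secreted ligands of the TGF-beta superfamily that bring together type I and type II serine/threonine kinase receptors on the receiving cell. The activated receptors phosphorylate SMAD1, SMAD5 and SMAD9, which enter the nucleus with SMAD4 and switch on target genes, among them the ID genes and SMAD6, an inhibitory SMAD that feeds back on the receptors. ID proteins have no DNA-binding domain and hold basic helix-loop-helix transcription factors inactive, and BMP signals are known for their part in distal lung bud growth and in the choice between neurons and astrocytes. The genes described are the ligands BMP2, BMP4 and BMP7, the receptors BMPR1A and BMPR2, SMAD6, and the targets ID1, ID2, ID3 and ID4, chosen by their Ensembl rhesus symbol. Of these 10 genes, 9 were matched, 8 among the 30246 gene identifiers of the lung count table and 9 among the 32386 of the hippocampus table. BMP2 was matched in neither table and ID3 in the hippocampus only, so both are named without lung values. All 8 genes in lung and all 9 in hippocampus passed the filter on low counts, among 17644 and 17390 genes tested.

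The study treated pregnant rhesus macaques with intramuscular betamethasone, a glucocorticoid given before preterm birth to mature the fetal lung, and sequenced RNA of fetal tissue. Lung came from 5 groups of 3 wild type fetuses, labelled with gestational days 124 to 130: saline, the clinical drug (Celestone, betamethasone phosphate with betamethasone acetate) at 0.25 mg/kg with delivery after 4 h or 5 days, and betamethasone acetate alone (Beta-Ac) at 0.125 mg/kg with delivery after 6 h or 5 days. Hippocampus came from 3 groups of 5 fetuses named CTL (saline, gestational days 130 to 135), BAC (days 132 to 133) and CEL (days 131 to 136), all delivered at 5 days. The treatment and dose fields of BAC and CEL conflict with those names, since BAC carries both esters at 0.25 mg/kg and CEL carries the acetate at 0.125 mg/kg. The lung labels of the same animal numbers, 3 of 5 per group, side with the names, and the groups are called by name here. These animals carry gestational days 131 to 136 in the hippocampus labels, outside the range of the lung labels. The saline lungs have no delivery time in their labels, and their animal numbers are those of CTL replicates 1 to 3, labelled 5 days. The lungs at 4 h and 6 h therefore have no saline group labelled with their own time. Library totals ran from 14073002 to 45033799 reads in lung and from 18280762 to 29301058 reads in hippocampus. The defining markers matched the tissues: the lung epithelium list, led by SFTPC, summed to between 6410 and 16780 CPM (read counts scaled to library size by the TMM method) in lung, and the hippocampal neuron list, led by NEUROD6, to between 289.0 and 592.6 CPM in hippocampus.

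Several libraries stood apart from the rest of their tissue. In lung, clinical drug 4 h replicate 2 lay at -80.9 on the first principal component, which held 22.3% of the variance, and the next library was another of its group at -49.8. In hippocampus, CTL replicate 5 lay at -74, and its choroid plexus markers (5 of 8 in the table, led by CLIC6, none at 0) summed to 1003 CPM, against 4.39 to 21.3 CPM in the 14 other libraries. BAC replicate 4 lay at -31.9 on that component and had the lowest median correlation with other libraries after CTL replicate 5. Its chi-square per gene against the other BAC libraries was 161.6 to 257.7, where their own pairs gave 34.2 to 78.8. By the same measure CTL replicate 1 gave 86.8 to 115.4 against CTL replicates 2 to 4, whose own pairs gave 31.0 to 32.5. In lung, saline replicate 1, a control in every comparison with saline, gave 52.1 and 57.5 against the other saline lungs, whose own pair gave 26.1. Beta-Ac 6 h replicate 3 gave 41.9 and 58.0 against the others of its group, whose own pair gave 27.1. Several results are given with and without these libraries.

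The lung comparisons asked what each drug did to gene expression within hours and at 5 days. A gene was called where its fold change was at least 1.5, its p was under 0.05 and its adjusted p was under 0.1 by edgeR's quasi-likelihood test, with Storey's adjustment (q) in lung and the Benjamini-Hochberg adjustment in hippocampus. At 4 h after the clinical drug, 1 of the 8 genes differed from saline, the ligand gene BMP7, which was lower. Of all genes tested, 7.4% were called in that comparison and 3.94% were called lower, so a single call among 8 genes is close to the background. The median log2 fold change of the 8 genes was -0.32, beside 0.02 over all genes, and 7 of the 8 were below 0. The median of the 8 ran from -0.46 without clinical drug replicate 3 to -0.21 without clinical drug replicate 2. At 6 h after Beta-Ac, 0 of the 8 were called by edgeR, beside 0.442% of all genes, with 2 (ID1 and ID2) at an unadjusted p under 0.05 and 0 called by DESeq2. Over all genes, 2021 of 17644 had an unadjusted p under 0.05 by edgeR, and DESeq2 called 247 of 16603. Both comparisons share the 3 saline libraries.

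BMP7, a ligand made by epithelium in many developing organs, was measured at 15.6, 13.6 and 15.3 CPM in the saline lungs and at 4.17, 4.19 and 8.26 CPM in the lungs 4 h after the clinical drug. All 3 treated lungs lay below all 3 saline lungs, in a comparison where 21.3% of all genes had no overlap between the groups in either direction. The mean fell from 14.9 ± 1.08 CPM (SD, n = 3) to 5.54 ± 2.36 CPM (SD, n = 3), on 56 to 180 reads per treated library, a log2 fold change of -1.44 (SE 0.31) with q = 0.00969 by edgeR. Without clinical drug replicate 2 the change was -1.30 with q = 0.044, and the call was made in 13 of 13 alternatives. In whole tissue, fewer cells of a type and less RNA per cell cannot be told apart. At 6 h after Beta-Ac BMP7 stood at 17.5, 15.2 and 7.33 CPM, where replicate 3 lay below every saline lung and the others did not. At 5 days BMP7 stood at 16.9, 20.7 and 14.7 CPM after the clinical drug and at 15.1, 15.2 and 19.4 CPM after Beta-Ac. Every 5-day lung lay above all 3 lungs taken 4 h after the clinical drug, and both 5-day groups overlapped saline. Between 5 days and 4 h after the clinical drug, 29.1% of all genes had no overlap. In order of mean, BMP7 was lowest at clinical drug 4 h, then Beta-Ac 6 h, saline, Beta-Ac 5 days and clinical drug 5 days, and each neighbour overlapped the next.

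BMP4, the ligand of distal lung bud tips, was measured at 106.5, 80.9 and 86.1 CPM in saline lungs. It stood at 82.8, 56.9 and 78.6 CPM at 4 h after the clinical drug, where 2 of the 3 lungs lay below all saline lungs, with a log2 fold change of -0.32 (SE 0.14) and q = 0.154 by edgeR. At 5 days after the clinical drug it stood at 98.3, 100.1 and 111.2 CPM. These 5-day lungs all lay above the 4 h lungs, beside 29.1% of all genes with no overlap, and the log2 difference of 0.50 (SE 0.14, q = 0.0237 by edgeR) was under the fold threshold. After Beta-Ac the range was 75.9 to 78.2 CPM at 6 h, below all saline lungs but with a log2 fold change of -0.24 and q = 0.403 by edgeR, and 73.8 to 94.3 CPM at 5 days. Of all genes, 16.3% had no overlap between Beta-Ac 6 h and saline.

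BMPR1A, a type I receptor, ranged from 43.8 to 56.8 CPM over the 15 lungs, and its log2 fold changes against saline were 0.11 at clinical drug 4 h, 0.06 at Beta-Ac 6 h, 0.08 at clinical drug 5 days and 0.22 at Beta-Ac 5 days. BMPR2, the type II receptor, ranged from 26.3 CPM in clinical drug 4 h replicate 2 to 68.2 CPM in Beta-Ac 6 h replicate 3. Neither receptor gene was called in any of the 9 lung comparisons. The inhibitory SMAD6 was measured at 14.2, 28.2 and 63.2 CPM at 6 h after Beta-Ac, against 22.4, 27.1 and 14.3 CPM in saline. At 6 h a single lung, replicate 3, lay above the saline range by more than the saline spread, and the log2 fold change of 0.73 (SE 0.38) had q = 0.361 by edgeR. At 5 days after Beta-Ac SMAD6 stood at 30.05, 30.06 and 32.2 CPM, above all saline lungs, with a log2 fold change of 0.54 (SE 0.37, q = 0.803 by edgeR). BMPR1A stood at 53.8, 53.01 and 56.8 CPM in those lungs, also above all saline lungs at 45.3, 44.2 and 51.3 CPM, with q = 0.757 by edgeR. Of all genes, 12.1% had no overlap between Beta-Ac 5 days and saline. SMAD6 also had no overlap between 5 days and 4 h after the clinical drug, beside 29.1% of all genes, with a log2 difference of 0.45 (q = 0.319 by edgeR). SMAD6 was called in none of the 9 lung comparisons.

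**Figure D1:**
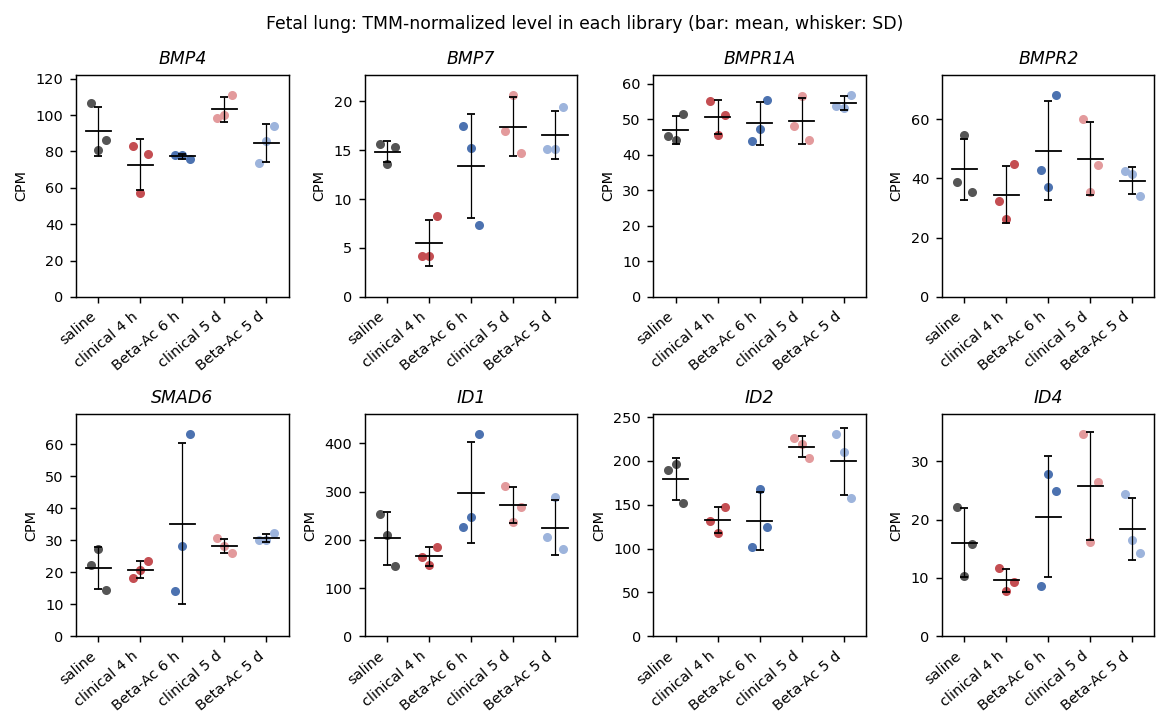
Level of each of the 8 genes in the 15 lung libraries, in TMM-normalised CPM, with each point a fetus and the bars the group mean and SD (n = 3). BMP7 at 4 h after the clinical drug (4.17 to 8.26 CPM) lies below all saline lungs (13.6 to 15.6 CPM).

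The ID genes are direct targets of BMP-activated SMADs. ID2, which is prominent at the distal tips of the developing lung, was measured at 190.2, 196.5 and 151.7 CPM in saline and at 132.0, 117.8 and 148.0 CPM at 4 h after the clinical drug. The groups did not overlap, as for 21.3% of all genes, and the log2 fold change of -0.44 (SE 0.18) had q = 0.129 by edgeR. At 6 h after Beta-Ac ID2 stood at 101.9, 168.0 and 124.6 CPM, overlapping saline through replicate 2, with a log2 fold change of -0.45 (SE 0.18) and q = 0.283 by edgeR. Without that replicate the change was -0.68 with q = 0.0861 and passed the call. ID2 then stood at 225.8, 219.8 and 203.3 CPM at 5 days after the clinical drug, above all saline lungs, with a log2 fold change of 0.27 and q = 0.931 by edgeR, beside 12.3% of all genes with no overlap.

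ID1 was measured at 254.3, 208.9 and 145.0 CPM in saline, at 163.8, 147.4 and 185.4 CPM at 4 h after the clinical drug, and at 227.4, 247.4 and 419.3 CPM at 6 h after Beta-Ac. The saline lungs spanned the whole range of the clinical drug group, and Beta-Ac replicate 3 stood far above the others. The log2 fold changes against saline were -0.29 (SE 0.25, q = 0.405 by edgeR) for the clinical drug and 0.56 (SE 0.25, q = 0.317 by edgeR) for Beta-Ac. ID4 was measured at 22.1, 10.3 and 15.8 CPM in saline, at 11.7, 7.78 and 9.33 CPM at 4 h after the clinical drug, and at 8.70, 27.9 and 24.9 CPM at 6 h after Beta-Ac. Both early groups overlapped saline. In order of mean, ID1 ran clinical drug 4 h, saline, Beta-Ac 5 days, clinical drug 5 days and Beta-Ac 6 h, and ID4 ran clinical drug 4 h, saline, Beta-Ac 5 days, Beta-Ac 6 h and clinical drug 5 days.

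Set directly against each other at their early times, which differ (4 h and 6 h) as do the doses, the clinical drug and Beta-Ac differed in 3 of the 8 genes, all lower after the clinical drug. Of all genes, 6.74% were called in this comparison and 4.11% were called lower, and the median log2 difference was -0.64 over the 8 genes and -0.02 over all genes. Without Beta-Ac replicate 3 the median of the 8 was -0.15 and that of all genes 0.00, and without any other of the 6 libraries the median of the 8 was -0.81 to -0.55. BMP7 differed by -1.28 (SE 0.31, q = 0.0232 by edgeR), although Beta-Ac replicate 3 lay within the range of the clinical drug. ID1 differed by -0.85 (SE 0.25, q = 0.0431 by edgeR), with no overlap between the groups, as for 22.4% of all genes. ID4 differed by -1.08 (SE 0.40, q = 0.0909 by edgeR), with Beta-Ac replicate 1 inside the range of the clinical drug. With only these 6 libraries in the fit, 0 of the 3 calls were made, and the q values were 0.147 for BMP7, 0.113 for ID1 and 0.183 for ID4, at differences of -1.28, -0.84 and -1.09. That fit called 314 of all 16804 genes tested, against 1189 of 17644 with all libraries.

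In that comparison the call of BMP7 was made in 12 of 13 alternatives, that of ID1 in 10 and that of ID4 in 6. With all libraries in the fit, the ID4 call was lost with the Benjamini-Hochberg adjustment (adjusted p = 0.146 by edgeR) and with no minimum of reads (q = 0.148). Without clinical drug replicate 2, ID1 differed by -0.77 (q = 0.125 by edgeR) and ID4 by -0.96 (q = 0.218). Without Beta-Ac replicate 3, ID1 differed by -0.52 (q = 0.166 by edgeR) and ID4 by -0.92 (q = 0.217). The ID4 call was also lost without clinical drug replicate 3 (-1.06, q = 0.171 by edgeR) and without Beta-Ac replicate 2 (-0.78, q = 0.197). SMAD6 differed by -0.76 with all libraries, by -1.14 (q = 0.0372 by edgeR, called) without Beta-Ac replicate 1 and by -0.04 without Beta-Ac replicate 3. Beta-Ac replicate 3 also had the highest sum of red cell markers (3 of 4 in the table, led by ALAS2, none at 0). The sum was 213.5 CPM, against 19.0 to 89.4 CPM in the 14 other lungs. Between the early groups edgeR called 1 of 3 red cell markers lower after the clinical drug (median log2 difference -1.243). It also called 2 of 4 immune (-0.783) and 1 of 6 endothelium markers (-0.079) lower, and 1 of 2 mesothelium markers higher (1.611). On lists for cells of other tissues, 2 striatum markers and 1 meninges marker were higher. Lower was 1 marker on each of the astrocyte, choroid plexus, hippocampal neuron and oligodendrocyte lists. The part of these cells in the results was not tested.

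By 5 days, 0 of the 8 genes were called against saline after the clinical drug or after Beta-Ac by edgeR, with 0 at an unadjusted p under 0.05 and 0 by DESeq2 in each. The background was as low, with 0% of all genes called by edgeR after the clinical drug and 0.00567% after Beta-Ac. DESeq2 called 16 and 40 of all genes there. With the lungs of both drugs pooled the share was 0.0113% by edgeR, and DESeq2 called 33 of all genes. Again 0 of the 8 were called, with 0 at an unadjusted p under 0.05 and 0 by DESeq2. All 8 genes had log2 fold changes above 0 at 5 days after the clinical drug, from 0.08 for BMPR1A to 0.68 for ID4, with a median of 0.25 beside 0.00 over all genes. Without saline replicate 3, or without clinical drug 5 days replicate 1 or 2, 7 of the 8 were above 0, with medians of 0.18, 0.24 and 0.27. Between the drugs at 5 days, 0 of the 8 were called by edgeR, beside 0% of all genes, with 0 at an unadjusted p under 0.05 and 0 by DESeq2. DESeq2 called 8 of all genes in that comparison.

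Within the clinical drug, 4 of the 8 genes were higher at 5 days than at 4 h, beside 10.4% of all genes called and 5.92% called higher. The median log2 difference was 0.60 over the 8 genes and 0.00 over all genes. BMP7 rose by 1.66 (SE 0.31, q = 0.00287 by edgeR), ID2 by 0.71 (SE 0.18, q = 0.0144), ID4 by 1.41 (SE 0.41, q = 0.0282) and ID1 by 0.72 (SE 0.25, q = 0.0565). For each of them, all 3 lungs at 5 days lay above all 3 lungs at 4 h, beside 29.1% of all genes with no overlap between these groups. ID1 stood at 311.4, 236.5 and 267.8 CPM and ID4 at 34.7, 16.2 and 26.5 CPM at 5 days. The calls of BMP7 and ID2 were made in 13 of 13 alternatives. Without clinical drug 4 h replicate 2, ID1 differed by 0.65 (q = 0.156 by edgeR) and ID4 by 1.30 (q = 0.1), and without clinical drug 5 days replicate 1, ID1 differed by 0.61 (q = 0.174) and ID4 by 1.13 (q = 0.117). BMP4 passed the call (0.62, q = 0.0129 by edgeR) without clinical drug 4 h replicate 1. The lungs taken 4 h after the clinical drug are shared with the comparisons above. Their animal numbers all begin with 15, and those of the 5-day and Beta-Ac 6 h lungs begin with 16 or 17. The labels do not say what this prefix stands for, and a difference that goes with it cannot be told apart from one between these groups. Marker lists held edgeR calls, with 2 of 4 immune genes higher (median log2 difference 0.885) and 1 of 6 lung epithelium genes lower (-0.241). Of 6 endothelium genes, 1 was higher and 1 lower (0.199). On lists for cells of other tissues, 1 astrocyte, 1 choroid plexus and 1 hippocampal neuron gene were higher. Lower were 2 striatum genes and 1 meninges gene. The part of these cells in these differences was not tested.

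Within Beta-Ac, 0 of the 8 genes were called between 5 days and 6 h by edgeR, beside 0.261% of all genes. ID2 had an unadjusted p under 0.05 and was the single gene of the 8 called by DESeq2. Over all genes, 1396 of 17644 had an unadjusted p under 0.05 by edgeR, and DESeq2 called 185 of 15238. The values of ID2 overlapped. ID2 stood at 230.7, 210.7 and 157.2 CPM at 5 days, overlapping the 6 h lungs through replicate 3, and the log2 difference was 0.60 (SE 0.18, q = 0.27 by edgeR), or 0.84 (q = 0.0643) without Beta-Ac 6 h replicate 2.

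**Figure D2:**
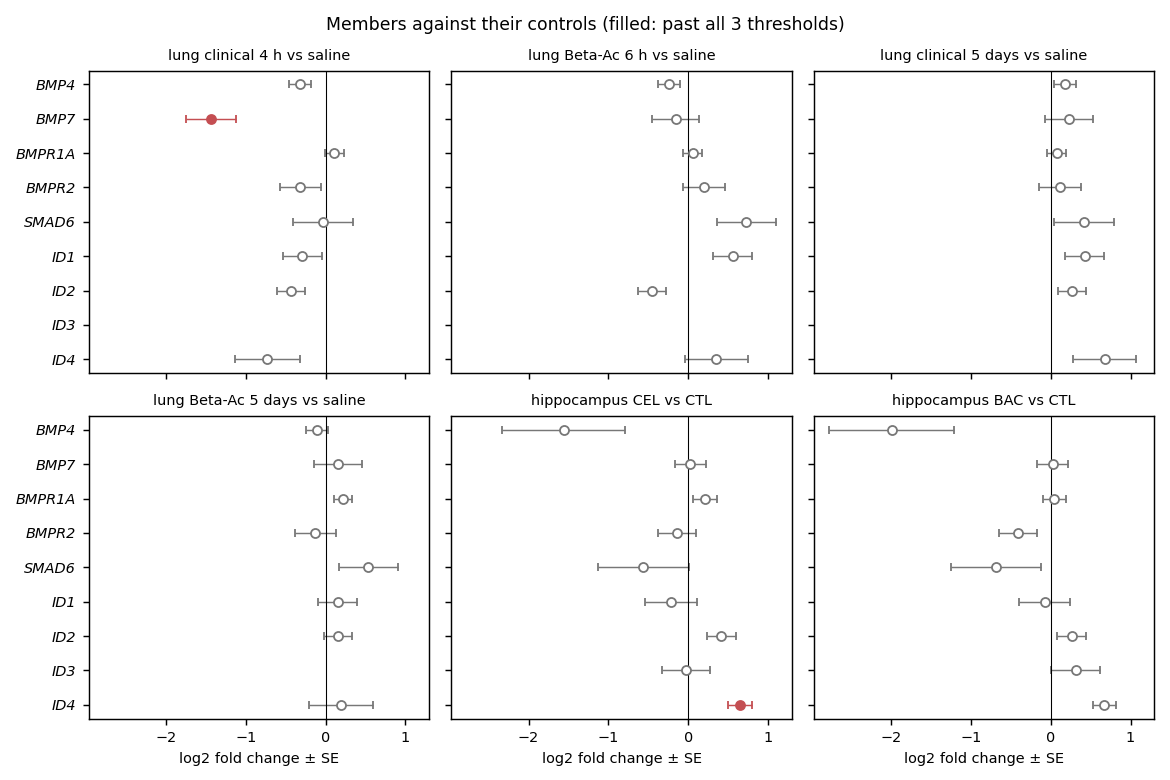
Log2 fold change of each gene in the 6 comparisons of a single treated group with its controls, with bars of 1 SE and filled points for calls. BMP7 was called at clinical drug 4 h against saline (-1.44), and ID4 in the hippocampus of CEL against CTL (0.65).

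The wider pathway was read from 6 lists of 65 genes, of which 38 were tested in lung. At 4 h after the clinical drug 3 were higher and 2 lower than saline by edgeR, with a median log2 fold change of -0.12 (-0.23 without clinical drug replicate 1), and DESeq2 called 3 higher and 4 lower. Of all genes, 7.4% were called there by edgeR, 3.46% higher and 3.94% lower. DESeq2 called 1297 of 16261 genes, and 3301 of 17644 had an unadjusted p under 0.05 by edgeR. Both lower genes were among the 4 other ligands tested. BMP3, a ligand that opposes other BMPs, was measured at 12.3, 12.4 and 7.64 CPM after the clinical drug and at 41.7, 32.6 and 33.9 CPM in saline, and fell by 1.74 on the log2 scale (SE 0.24, q = 0.000477 by edgeR). BMP6 was measured at 8.64, 5.53 and 10.8 CPM against 21.6, 17.2 and 16.0 CPM, and fell by 1.13 (SE 0.28, q = 0.0212). Neither gene's groups overlapped, as for 21.3% of all genes. At Beta-Ac 6 h BMP3 stood at 27.2, 15.3 and 19.8 CPM, below all saline lungs, with a log2 fold change of -0.80 (SE 0.23) that was not called by edgeR (q = 0.192) and was called by DESeq2. Between Beta-Ac 6 h and saline, 16.3% of all genes had no overlap.

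Of the 9 other receptors and coreceptors, 1 was higher at 4 h after the clinical drug: ENG, the coreceptor endoglin of endothelial cells, at 444.5, 557.2 and 461.3 CPM against 291.0, 314.2 and 287.1 CPM in saline (log2 fold change 0.71, SE 0.13, q = 0.00362 by edgeR). Of 8 SMADs and their regulators 1 was higher, SMAD9, a signal-carrying SMAD (0.59, q = 0.0386). Of 4 other target genes 1 was higher, HEY1, a helix-loop-helix repressor that Notch also induces (0.61, q = 0.0909). The 9 antagonists and modulators held 0 calls by edgeR, with 1 at an unadjusted p under 0.05, SOSTDC1, which DESeq2 called lower, as did edgeR with other size factors or the filterByExpr filter. The 4 E proteins and helix-loop-helix partners held 0 calls by edgeR, with 1 at an unadjusted p under 0.05 and 0 by DESeq2. At 6 h after Beta-Ac edgeR called 1 of the 38, HEY1, beside 0.442% of all genes called and 0.368% called higher, and DESeq2 called HEY1 and BMP3. HEY1 stood at 37.1, 32.0 and 45.6 CPM against 11.4, 22.3 and 19.0 CPM in saline (1.124, SE 0.22, q = 0.0523 by edgeR). Every Beta-Ac 6 h lung lay above every saline lung, beside 16.3% of all genes with no overlap. With only these 6 libraries in the fit 0 of the 37 tested were called by edgeR, beside 19 of all 16597 genes.

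BMP3, BMP6 and ENG were called at 4 h after the clinical drug whichever of the 6 libraries was left out. SMAD9 was not called without clinical drug replicate 1 or saline replicate 1, and HEY1 was called without saline replicate 2 but was not called when any of the other 5 was left out. With all libraries, SMAD9 was not called with no minimum of reads, with the filterByExpr filter or with only the groups compared in the fit, and HEY1 with the Benjamini-Hochberg adjustment, with no minimum of reads or with only the groups compared. At 6 h after Beta-Ac the HEY1 call was lost without saline replicate 1, saline replicate 3 or Beta-Ac replicate 3.

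At 5 days, 0 of the 38 were called against saline by edgeR after the clinical drug (3 at an unadjusted p under 0.05, 0 by DESeq2), after Beta-Ac (2 and 0) or with both drugs pooled (1 and 0), and 0 were called between the drugs (1 and 0). Over all 17644 genes, 775, 1133, 1089 and 556 had an unadjusted p under 0.05 by edgeR in these comparisons. DESeq2 called 16, 40, 33 and 8 of all genes in the same order. Between the early groups 2 were lower after the clinical drug, BMP3 (-0.94, q = 0.027 by edgeR) and the BMP antagonist CHRDL1 (-0.69, q = 0.0759), beside 6.74% of all genes called and 4.11% called lower. Neither was called with only these 6 libraries in the fit, and CHRDL1 was also lost with the Benjamini-Hochberg adjustment and with no minimum of reads. From 4 h to 5 days after the clinical drug 6 were higher (BMP3, ACVRL1, NOG, CHRDL1, GREM1 and GATA3) and 2 lower (ENG and GATA2), with a median of 0.17 (0.08 without 5 days replicate 2). Of all genes, 10.4% were called there, 5.92% higher and 4.47% lower. NOG, CHRDL1 and GREM1 are secreted antagonists that bind BMPs. BMP3, ENG and GREM1 were called whichever of the 6 libraries was left out. ACVRL1, NOG, CHRDL1 and GATA3 were not called without clinical drug 4 h replicate 2 or without 5 days replicate 1. NOG and GATA2 were not called without 4 h replicate 3, ACVRL1 and GATA2 without 5 days replicate 2, or CHRDL1 and GATA2 without 5 days replicate 3, and without 4 h replicate 1 the count was 13 in place of 8. With all libraries, NOG and GATA3 were not called with no minimum of reads, nor GATA2 with only the groups compared. Between the early groups CHRDL1 was not called without clinical drug replicate 2 or 3, or without Beta-Ac replicate 1, and without clinical drug replicate 1 the count was 5 in place of 2. The shares of all genes called without those libraries are not given here. From 6 h to 5 days after Beta-Ac, 1 was lower, HEY1 (-1.26, q = 0.0503 by edgeR), beside 0.261% of all genes called and 0.227% called lower, a call lost without any of the 3 Beta-Ac 5 days libraries or without 6 h replicate 3.

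At 4 h after the clinical drug, edgeR called 2 of the 6 lung epithelium markers higher than saline, SFTPC (1.13, q = 0.0178) and ABCA3 (0.93, q = 0.0076), 2 of 4 immune markers lower, PTPRC (-1.28, q = 0.0342) and CD3E (-2.09, q = 0.014), and 1 of 6 endothelium markers lower, KDR (-1.16, q = 0.000132). Beside them, 3.46% of all genes were called higher and 3.94% lower. These 5 were called whichever of the 6 libraries was left out and by DESeq2. On the endothelium list CDH5 was also called lower without clinical drug replicate 3, and VWF higher without saline replicate 3. The median log2 fold changes were 0.46, -0.86 and -0.33 for the 3 lists. The lung epithelium list (6 of 6 in the table, led by SFTPC, none at 0) summed to 16780, 10680 and 13400 CPM at 4 h and to 6593, 6410 and 9481 CPM in saline. All 3 treated lungs lay above saline in this sum, led by a gene that was itself called, and 21.3% of single genes had no overlap. The immune list (4 of 4, led by CSF1R, none at 0) summed to 69.9, 25.2 and 60.9 CPM against 107.7, 77.4 and 75.8 CPM, all 3 below saline, with the lowest in replicate 2. The endothelium list (6 of 8, led by PECAM1, none at 0) summed to 2910, 2650 and 3620 CPM against 2914, 3447 and 3384 CPM and overlapped. Of lists for cells of other tissues, PPP1R1B and DRD2 (striatum) and ALDH1A2 (meninges) were called higher, and PROX1 (hippocampal neurons) and SLC1A3 (astrocytes and radial glia) lower. DRD2 was called without clinical drug replicate 2 but was not called by DESeq2 or when any of the other 5 libraries was left out, and PROX1 was not called without saline replicate 2 or 3. The 8 remaining lists held 0 calls by edgeR with all libraries, with 2 genes at an unadjusted p under 0.05 and 0 by DESeq2. The part of these cells in the results for BMP7, the ID genes and the pathway was not tested.

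The hippocampus comparisons asked whether fetal brain expression differed 5 days after either drug. In CEL against CTL, 1 of the 9 genes was called, ID4, which was higher. Of all genes, 7.86% were called in that comparison and 2.5% were called higher, so a single call among 9 genes is close to the background. The median log2 fold change was -0.03 over the 9 genes and -0.02 over all genes. These medians were 0.37, with 8 of the 9 genes above 0, and 0.02 without CTL replicate 5. Without any other of the 10 libraries the median of the 9 was -0.16 to 0.00. With the sequencing run as a term it was -0.29, with 3 of the 9 above 0, and with only the animals that also had a lung library it was 0.27. In BAC against CTL, which shares the CTL libraries, 0 of the 9 were called by edgeR, beside 0% of all genes, with 2 (BMP4 and ID4) at an unadjusted p under 0.05 and 1 (ID4) called by DESeq2. Over all genes, 2133 of 17390 had an unadjusted p under 0.05 by edgeR, and DESeq2 called 149 of 14574. In CEL against BAC, 0 of the 9 were called by edgeR, beside 0% of all genes, with 0 at an unadjusted p under 0.05 and 0 by DESeq2.

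ID4, an ID gene of neural progenitors and astrocytes, was measured at 72.6, 74.8, 92.2, 111.2 and 80.9 CPM in CTL and at 137.9, 133.2, 156.9, 124.2 and 124.8 CPM in CEL. All 5 CEL libraries lay above all 5 CTL libraries, beside 15.1% of all genes with no overlap between these groups. The mean rose from 86.4 ± 15.9 CPM (SD, n = 5) to 135.4 ± 13.4 CPM (SD, n = 5), a log2 fold change of 0.65 (SE 0.15) with adjusted p = 0.0172 by edgeR. Without CTL replicate 5 the change was 0.63 (SE 0.16) with adjusted p = 0.0245. BAC stood at 119.2, 150.1, 185.2, 108.8 and 124.9 CPM. Of these, 4 of 5 lay above all CTL libraries, and the log2 fold change of 0.67 (SE 0.15) had adjusted p = 0.213 by edgeR and 0.0102 by DESeq2. Without BAC replicate 1 it was 0.72 with adjusted p = 0.0538 by edgeR, which passed the call. Without BAC replicate 4, the BAC library inside the CTL range, it was 0.75 with adjusted p = 0.264 by edgeR, and 0 of the 9 genes were called. CEL and BAC differed in ID4 by -0.02 (SE 0.15).

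Sequencing runs were unequal, with 3 of the 5 CTL libraries from runs that held no treated library. With the run as a term in the fit, ID4 in CEL differed from CTL by 0.62 (adjusted p = 0.057 by edgeR). Within the runs that held all 3 groups it differed by 0.66 (adjusted p = 0.134), a change of the same size that was not called with fewer libraries. The astrocyte and radial glia list (3 of 5 in the table, led by SLC1A3, none at 0) summed to 2058, 2190, 3166, 2325 and 2319 CPM in CTL and to 3779, 2887, 4077, 3344 and 3233 CPM in CEL. It summed to 3630, 2396, 3487, 2133 and 3846 CPM in BAC. The sums were higher in CEL than in CTL except for CEL replicate 2, which lay below CTL replicate 3, and AQP4 on that list was called (0.93, adjusted p = 0.0225 by edgeR). These cells express ID4 themselves, and their part in the result was not tested.

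**Figure D3:**
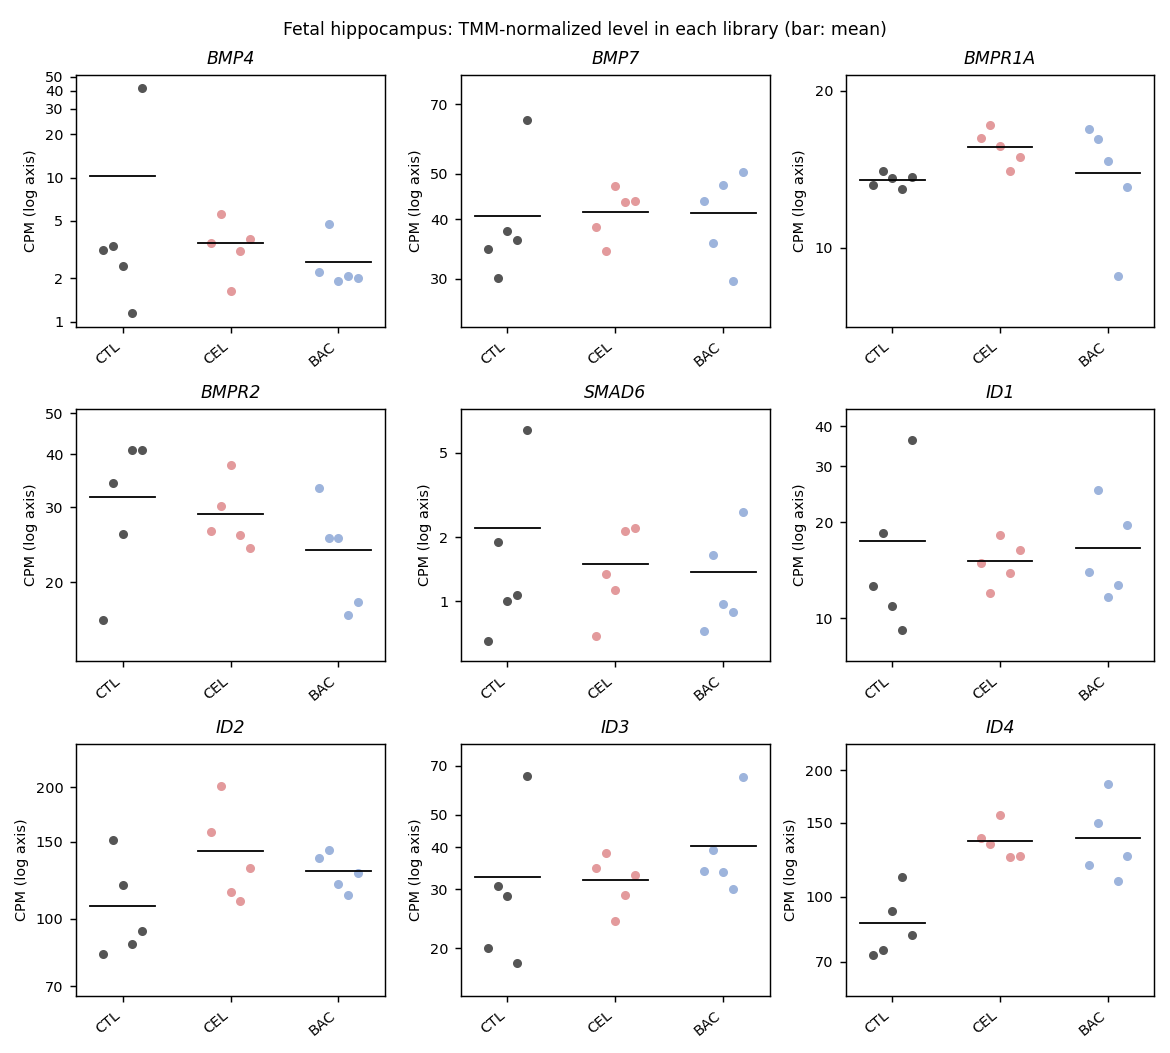
Level of each of the 9 genes in the 15 hippocampus libraries, in TMM-normalised CPM on a log axis, with each point a fetus and the bars the group mean. ID4 in CEL (124.2 to 156.9 CPM) lies above all CTL libraries (72.6 to 111.2 CPM), and CTL replicate 5 stands out in BMP4 at 41.5 CPM.

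BMP4 in hippocampus rested on the library that stood apart. It was measured at 3.15, 3.35, 2.45, 1.15 and 41.5 CPM in CTL, at 3.54, 5.56, 1.62, 3.11 and 3.77 CPM in CEL, and at 2.20, 4.78, 1.90, 2.09 and 2.00 CPM in BAC. CTL replicate 5 lay far above the 14 others, and the remaining CTL libraries overlapped both treated groups. The log2 fold change of CEL against CTL was -1.56 (SE 0.77, adjusted p = 0.183 by edgeR) with that library and 0.48 (SE 0.38, adjusted p = 0.426) without it. For BAC against CTL it was -1.99 (adjusted p = 0.328 by edgeR) with it and 0.04 (adjusted p = 0.974) without it. With the run as a term BMP4 passed the call in CEL (-2.46, adjusted p = 0.0848 by edgeR), in a fit that holds CTL replicate 5 as the single CTL library of its run.

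BMP7 was measured at 34.6, 30.1, 37.9, 36.1 and 64.8 CPM in CTL, where replicate 5 was again the highest. CEL ranged from 34.4 to 47.1 CPM and BAC from 29.7 to 50.4 CPM, and all 3 groups overlapped. The log2 fold change of CEL was 0.03 with CTL replicate 5 and 0.26 without it, and that of BAC was 0.02 and 0.26. BMPR1A was measured at 13.2, 14.04, 13.6, 12.97 and 13.7 CPM in CTL and at 16.2, 17.2, 15.7, 14.04 and 14.9 CPM in CEL. No CEL library lay below the highest CTL library, beside 15.1% of all genes with no overlap, with a log2 fold change of 0.21 (SE 0.15, adjusted p = 0.345 by edgeR). BMPR2 ranged from 16.3 to 40.9 CPM in CTL, from 24.1 to 37.8 CPM in CEL and from 16.8 to 33.3 CPM in BAC. SMAD6 was near the limit of detection, from 0.651 to 1.91 CPM in 4 CTL libraries and 6.44 CPM in replicate 5, and its log2 fold change was -0.56 in CEL and -0.68 in BAC with that library and 0.37 and 0.25 without it.

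The other ID genes were not called in hippocampus. ID1 was measured at 12.7, 18.6, 10.9, 9.16 and 36.2 CPM in CTL, with replicate 5 the highest, and ranged from 12.0 to 18.3 CPM in CEL and from 11.6 to 25.3 CPM in BAC. ID3 was measured at 20.02, 30.7, 28.5, 18.01 and 65.2 CPM in CTL, and ranged from 24.1 to 38.5 CPM in CEL and from 30.0 to 64.9 CPM in BAC. Without CTL replicate 5 the log2 fold change of CEL moved from -0.21 to 0.24 for ID1 and from -0.03 to 0.39 for ID3. That of BAC moved from -0.08 to 0.38 for ID1 and from 0.31 to 0.73 for ID3 (adjusted p = 0.208 by edgeR without it). ID2 was measured at 83.1, 151.7, 119.6, 87.4 and 93.6 CPM in CTL and at 158.0, 201.7, 114.8, 109.6 and 130.4 CPM in CEL. The groups overlapped, and the log2 fold change of 0.42 (SE 0.18) had adjusted p = 0.134 by edgeR. In order of mean, ID2 ran CTL, BAC and CEL with overlap throughout, and ID4 ran CTL, CEL and BAC with no overlap between CTL and CEL.

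Of the wider pathway, 44 genes were tested in hippocampus, and 3 were higher and 3 lower in CEL than in CTL by edgeR, with a median log2 fold change of -0.05 (0.05 without CTL replicate 3 or CTL replicate 5), and DESeq2 called 7. Of all genes, 7.86% were called by edgeR, 2.5% higher and 5.35% lower. DESeq2 called 1405 of 15901 genes, and 5322 of 17390 had an unadjusted p under 0.05 by edgeR. Higher were SMAD5, a signal-carrying SMAD (0.60, adjusted p = 0.053 by edgeR), the antagonist GREM1 (0.69, adjusted p = 0.0363) and NEUROD1, a helix-loop-helix factor of differentiating neurons (1.18, adjusted p = 0.0242). NEUROD1 was measured at 135.2, 116.8, 149.2, 124.2 and 115.1 CPM in CEL and at 42.8, 59.7, 83.2, 38.6 and 57.9 CPM in CTL, with no overlap. Lower were the type II receptors ACVR2A (-0.91, adjusted p = 0.0424 by edgeR) and ACVR2B (-0.96, adjusted p = 0.0281), and SMURF1, a ubiquitin ligase that targets BMP SMADs (-0.63, adjusted p = 0.0243). SMURF1 was measured at 17.5, 18.8, 15.4, 17.5 and 18.7 CPM in CEL and at 24.1, 31.6, 27.6, 27.7 and 24.97 CPM in CTL, with no overlap, as for 15.1% of all genes. By list, 0 of 4 ligands, 2 of 9 receptors, 2 of 9 SMADs and regulators, 1 of 11 antagonists, 0 of 4 target genes and 1 of 7 helix-loop-helix genes were called by edgeR. The ligands and target genes held 0 and 1 at an unadjusted p under 0.05, and 0 by DESeq2.

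ACVR2A, ACVR2B and NEUROD1 were called whichever of the 10 libraries was left out. SMAD5 was not called without CTL replicate 1 or 2 or without CEL replicate 1 or 3, SMURF1 without CTL replicate 2, and GREM1 without CEL replicate 3. Without CTL replicate 5 all 6 were called, with BMPER, FST and NEUROG2 added. With the run as a term none of the 6 was called, and 2 other genes, ENG and SOSTDC1, were lower. The share of all genes called in that fit is not given here, so the loss is not read as particular to the pathway. Within the runs that held all 3 groups 0 of the 43 tested were called by edgeR, beside 229 of all 17195 genes. With only the animals that also had a lung library, ACVR2B and GREM1 were not called. In BAC against CTL 0 of the 44 were called by edgeR, with 9 at an unadjusted p under 0.05 and 0 by DESeq2, and in CEL against BAC 0 were called, with 8 and 1. Over all 17390 genes, 2133 and 2346 had an unadjusted p under 0.05 by edgeR in these comparisons. DESeq2 called 186 of 13916 genes in CEL against BAC.

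Of the 15 marker lists, 4 held genes called lower in CEL than in CTL, and CTL replicate 5 was the highest of the 15 libraries on each of them. All 5 choroid plexus genes tested were called lower by edgeR with that library (median log2 fold change -5.00), where DESeq2 called 1 (PRLR), and 1 of 5 without it (SLC4A5, median -0.62). The list summed to 7.41, 8.28, 6.90, 9.36 and 1003 CPM in CTL and to 4.52, 6.84, 8.51, 5.47 and 4.39 CPM in CEL. Of the fibroblast list (6 of 7 in the table, led by PDGFRA, none at 0) 4 of 6 were called lower with CTL replicate 5 (median -1.53) and 1 of 6 without it (DCN, median -1.02). It summed to 525.1, 647.9, 494.4, 337.5 and 1318 CPM in CTL and to 510.1, 391.3, 316.1, 355.6 and 441.7 CPM in CEL. Of the meninges list (6 of 6, led by DCN, none at 0), which shares DCN, COL1A1 and LUM with the fibroblast list, 2 of 6 were called lower with it (median -1.15) and 1 of 6 without it (DCN, median -0.86). It summed to 129.1, 205.4, 113.9, 81.8 and 404.8 CPM in CTL and to 121.9, 67.5, 33.7, 49.0 and 50.3 CPM in CEL. Of the endothelium list (7 of 8, led by KDR, none at 0) 2 of 7 were called lower with it (median -0.40) and 0 of 7 by edgeR without it, with 0 at an unadjusted p under 0.05 (median 0.07). It summed to 168.3, 183.1, 237.2, 127.5 and 352.6 CPM in CTL and to 183.3, 157.3, 167.4 and 147.4 CPM in CEL replicates 1 to 4, with CEL replicate 5 above these and below 237.2 CPM.

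The astrocyte and radial glia list held 1 higher call, AQP4, with and without CTL replicate 5. The 10 remaining lists held 0 calls by edgeR, with 5 genes at an unadjusted p under 0.05 and 0 by DESeq2. Their median log2 fold changes ran from -0.67 for striatum to 0.66 for red cells, with 0.46 for hippocampal neurons, 0.39 for the oligodendrocyte lineage and 0.05 for immune cells. Without CTL replicate 5, ID4 and the 6 pathway genes were called, as were SLC4A5, DCN and AQP4 of the marker lists. The part of these cells in the results was not tested.

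Deviations of log2 CPM from the group mean were correlated for 28 pairs of genes in lung and 36 pairs in hippocampus, each over 15 libraries, with exact permutation within groups in lung and 100000 random permutations in hippocampus, two-sided. The median Pearson r was 0.20 in lung and 0.233 in hippocampus. In lung 0 pairs had a Benjamini-Hochberg adjusted p under 0.05, and 2 had an unadjusted p under 0.05. The larger fell on SMAD6 and ID1 (r = 0.713, permutation p = 0.0459, adjusted p = 0.643, rho = 0.654, permutation p = 0.0512), and r was 0.543 without the 2 libraries farthest from the median of SMAD6. BMPR2 and ID1 followed (r = 0.706, permutation p = 0.0136, adjusted p = 0.382, rho = 0.746, permutation p = 0.00527), with r of 0.583 without the 2 farthest.

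In hippocampus 1 of the 36 pairs passed, BMPR1A with ID2 (r = 0.447, permutation p = 0.00031, adjusted p = 0.0112). Spearman's rho for this pair was 0.657 (permutation p = 0.00173, adjusted p = 0.0623), and r was 0.607 without the 2 libraries farthest from the median of BMPR1A and 0.735 within the run that held 3 BAC and 3 CEL libraries. Without CTL replicate 5, r was 0.458 (permutation p = 0.00032, adjusted p = 0.0115) and rho was 0.67 (permutation p = 0.0013, adjusted p = 0.0468). The permutations exchanged libraries of different runs within groups. In BAC and in CEL, each library of the run that held 3 of them lay above the group's others in BMPR1A. The r within that run carries no test.

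In all 7 hippocampus pairs had an unadjusted p under 0.05. The largest r fell on SMAD6 and ID3 (r = 0.792, permutation p = 0.00762, adjusted p = 0.124, rho = 0.589, permutation p = 0.0393), with r = 0.433 without the 2 libraries farthest from the median of SMAD6. BMP4 and ID3 had r = 0.79 (permutation p = 0.0153, adjusted p = 0.124, rho = 0.7, permutation p = 0.0068), with r = 0.365 without the 2 farthest. SMAD6 and ID1 had r = 0.759 (permutation p = 0.0117, adjusted p = 0.124, rho = 0.646, permutation p = 0.021), with r = 0.507 without the 2 farthest. The pair BMP4 and ID1 had r = 0.772 (permutation p = 0.0207, adjusted p = 0.124, rho = 0.525, permutation p = 0.0561) with all libraries and r = 0.294 without the 2 farthest. CTL replicate 5 was 1 of the 2 farthest for each of these 4 pairs, and without it alone their r was 0.566, 0.45, 0.496 and 0.395 in that order, with permutation p of 0.0573, 0.124, 0.104 and 0.205. ID1 and ID3 (r = 0.723, permutation p = 0.0278, adjusted p = 0.143, rho = 0.575, permutation p = 0.0531) and BMPR1A and BMPR2 (r = 0.508, permutation p = 0.0205, adjusted p = 0.124, rho = 0.539, permutation p = 0.039) had r of 0.538 and 0.306 without the 2 farthest. CTL replicate 5 was also 1 of the 2 farthest for ID1 and ID3, and without it alone their r was 0.402 (permutation p = 0.253).

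Genes were ranked in each tissue by likeness to a mean standardised profile, of ID1 and ID2 in lung and of ID1, ID2 and ID3 in hippocampus, so the rankings are not set against each other. ID4 was not part of either profile. In lung, over 15 libraries and 12448 named genes, the highest Pearson r with the mean of ID1 and ID2 belonged to JUNB (0.879), RAPGEF4 (0.878), CD40LG (0.868), TAPBPL (0.863) and CYTIP (0.853). In hippocampus, over 13062 named genes and the mean of ID1, ID2 and ID3, it belonged to LRRC32 (0.867), CDH5 (0.848), ADAMTS1 (0.846), PTPN21 (0.837) and BGN (0.834). CDH5 is the cadherin of endothelial junctions. Without CTL replicate 5 those 5 genes stood at 0.874, 0.832, 0.82, 0.799 and 0.83. SERPINH1 (0.849) and FRMD6 (0.837) then ranked after LRRC32, and ADAMTS1 and PTPN21 left the first 5. These values describe likeness across libraries that share treatment groups and carry no test.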

How the data were processed

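RNA of 15 fetal lung and 15 fetal hippocampus samples of rhesus macaque was sequenced after poly(A) selection. The authors aligned the reads and deposited whole-number read counts per Ensembl gene, 1 table per tissue, and the submitters' processing notes name Bowtie 1.2.1.1 and featureCounts 1.5.1. The tables share 20572 of 42060 identifiers, so they were counted with different annotations and levels are given per tissue, with no test between tissues. All columns matched a labelled sample.

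Counts were analysed in R 4.3.3 with edgeR 4.0.16 (TMM normalisation, glmQLFit and glmQLFTest), in 1 fit per tissue over group means, keeping a gene where 3 or more lung libraries, or 5 or more hippocampus libraries, held 7 reads or more. P-values were adjusted over all genes tested. The standard error is the absolute log2 fold change divided by the square root of F. Levels are TMM-normalised CPM computed from the deposited counts. DESeq2 1.42.0 was an alternative, as were other size factors, filters, adjustments, fits to only the groups compared, no fold threshold, each library left out in turn and, in hippocampus, the sequencing run as a term, only runs with all groups and only animals with a lung library. Added alternatives were chosen after seeing the data: pathway calls and medians over gene lists under the same alternatives, HEY1 in hippocampus with the run as a term, marker calls by DESeq2 and without each library in hippocampus and at 4 h in lung, correlations and profile likeness without CTL replicate 5, and correlations within 1 run. Correlations were computed in Python 3.11.15. The gene-wide tests were also run on simulated data, whose outcome is not used for any result here. Replicates are separate animals, and no replicate pair agreed within sampling noise.

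The genes described, the 6 pathway lists and the 15 marker lists were chosen with earlier results of these data known. Named genes were all 10 chosen genes, the pathway genes called against controls, and the 5 named genes most like the ID profile per tissue. Pathway genes named in other comparisons, or without a library, were chosen after their values were seen.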

Additional observations from a re-analysis of the deposited data

Results flagged for a closer look

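Of 27 sets of 5 hippocampus values (9 genes in 3 groups), 6 held a value far from the others in its group, where chance gives about 1 in 20 groups for normally distributed values. That rate is only a rough guide here, because CPM were not log-transformed and the 27 sets share the same libraries. In CTL, replicate 5 was the highest for BMP4 (41.5 CPM), BMP7 (64.8 CPM), ID3 (65.2 CPM) and SMAD6 (6.44 CPM). These 4 come from 1 library, in which choroid plexus markers summed to 1003 CPM, and the part of those cells was not tested. In BAC, replicate 2 was the highest for BMP4 (4.78 CPM) and replicate 5 for ID3 (64.85 CPM). Meninges markers (6 of 6 in the table, led by DCN, none at 0) summed to 365.8 and 254.6 CPM in those libraries and to 132.6, 60.2 and 51.9 CPM in the other BAC libraries, and their part was not tested. Lung groups of 3 were not examined this way.

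In lung several genes were called between 2 treated groups, by edgeR's test of the difference itself. The early groups, which differ in drug, dose and time together, differed by -1.28 on the log2 scale for BMP7, by -0.85 for ID1 and by -1.08 for ID4, beside 6.74% of all genes called. These calls were made in 12, 10 and 6 of 13 alternatives, and none with only those 6 libraries in the fit. Between 5 days and 4 h after the clinical drug the differences were 1.66 for BMP7, 0.72 for ID1, 0.71 for ID2 and 1.41 for ID4, beside 10.4% of all genes called. The calls of BMP7 and ID2 were made in 13 of 13 alternatives and those of ID1 and ID4 in 11.

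BMP4 was called in neither tissue but had log2 fold changes of opposite sign, 0.18 in lung at 5 days after the clinical drug and -1.56 in hippocampus of CEL against CTL. This difference between tissues was not tested. The hippocampus value rests on CTL replicate 5 and is 0.48 without it.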

How the results depend on the processing

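Across 180 alternative counts of called genes over the 12 comparisons, 168 were within 1.5 times the reported count, and no log2 fold change of a called gene turned its sign. In most comparisons the reported count was 0, where this tally records only whether a call was gained. With only the groups compared in the fit, calls between the early lung groups went from 3 to 0, in a fit with fewer libraries. By DESeq2, 1 gene was called in Beta-Ac 5 days against 6 h and 1 in BAC against CTL, against 0 by edgeR, and the cause was not tested. With the run as a term 2 genes were called in CEL against CTL, and with only the runs that held all groups 0 were, with fewer libraries. The share of all genes called with the run as a term is not given here. Leaving out each library in turn gave 1 to 4 calls between the early lung groups, 2 to 5 in clinical drug 5 days against 4 h, and 0 to 1 in Beta-Ac 6 h against saline, in Beta-Ac 5 days against 6 h and in BAC against CTL. The other 7 comparisons kept their count whichever library was left out. By Spearman's rho 0 pairs of genes passed, and 1 without CTL replicate 5, against 1 by Pearson's r in both. Group mean levels shifted by at most 0.725 SD without normalisation factors and 0.310 SD with other size factors. No paired analysis was possible because the groups compared within a tissue share no animal. Animals with both tissues were not compared across tissues. Depth limited SMAD6 and BMP4 in hippocampus most, with as few as 13 reads of SMAD6 and 29 of BMP4 in a library.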

Other observations

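HEY1, a target of BMP and Notch signals, had log2 fold changes above 0 and under the fold threshold in the hippocampus of both treated groups, and edgeR called it in neither. It was chosen for description here after its values were seen. It was measured at 45.7, 48.3, 57.8, 49.5 and 38.3 CPM in CTL, at 65.1, 66.6, 62.9, 64.4 and 66.1 CPM in CEL, and at 60.9, 75.7, 66.9, 68.0 and 58.8 CPM in BAC. All 10 treated libraries lay above all 5 CTL libraries, where 15.1% of all genes had no overlap between CEL and CTL and 1.33% between BAC and CTL. The log2 fold change was 0.44 (SE 0.10) in CEL with adjusted p = 0.018 by edgeR, beside 0.46 (SE 0.10) in BAC with adjusted p = 0.213. With the sequencing run as a term it was 0.44 (SE 0.13, adjusted p = 0.085 by edgeR) in CEL and 0.46 (adjusted p = 0.252) in BAC. The comparisons share the CTL libraries.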
